A study of Mus musculus with 8 samples.

Results

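The genes described here carry names that begin with Cfap, Dnah, Dnaaf, Drc, Tekt or Rsph followed by a digit, families whose products build or assemble the ciliary axoneme. Such a name was carried by 59 of the 21369 genes in the authors' normalized table, and none had Dnai followed by a digit. The genes were chosen by name, and those to be tested were selected on read counts, at least 10 reads in 4 or more libraries, which left 55. The families were put forward because several of their genes, Cfap161, Drc1, Tekt2 and Tekt4 among them, were already known to be lower in these same libraries. Counts and calls below therefore describe these data and are not independent evidence of a direction.

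Expression was measured by RNA-seq in the mouse utricle, a balance organ of the inner ear that senses gravity, at E15.5 (embryonic day). Libraries from 4 pools of Rest(+/deltaExon4) embryos, with exon 4 of Rest deleted on 1 allele, were set beside 4 from wild-type pools. The titles call the former knockouts. The strain label is C57BL/6, each library held RNA of 7 to 9 mice, and no other allele or agent is named. For wild-type replicate 4 the labels read E15.6 and C57BL/7. Whether pools came from separate litters is not stated, so p-values measure the spread between these libraries.

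The axoneme is the microtubule core of a cilium: a ring of doublet microtubules, and in motile cilia usually a central pair. Dynein arms on the doublets drive sliding, the nexin-dynein regulatory complex links neighbouring doublets, radial spokes reach towards the central apparatus, and tektins and microtubule inner proteins stabilize the doublet walls. In the utricle every hair cell carries 1 true cilium, the kinocilium, at the tall edge of its actin-filled hair bundle. REST represses neuronal genes outside neurons, and splicing of its exon 4 changes the protein that is made. The comparison asks how losing that exon from a single allele alters gene expression.

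Read pairs on genes numbered 20.4 to 24.6 M per library. The share of read pairs outside genes was 11.9% to 18.3% in heterozygote and 18.4% to 22.2% in wild-type libraries, and genes with at least 1 read numbered 23408 to 23989 and 24265 to 24687. Neither measure overlapped between the genotypes, and their part in the results below was not tested. Markers of the utricle and otic epithelium were present, with the otoconin gene Oc90 at 1701 to 2478 CPM (reads scaled to a common library size with trimmed mean of M values factors) and the epithelial adhesion gene Epcam at 515 to 571 CPM in wild-type libraries. Blood was uneven: the globin gene Hbb-bs was at 2141 CPM in wild-type replicate 4 and at 152.9 to 185.4 CPM in wild-type replicates 1 to 3.

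Most axoneme genes had lower mean levels in the heterozygous utricles. The median log2 change was negative in each substructure other than the 4 assembly factors with Dnaaf names. Of the 55 tested, 7 fell and none rose at an adjusted p under 0.05 (edgeR's quasi-likelihood test, Benjamini-Hochberg adjustment over 17067 genes), where 1.0% of all genes tested fell and 0.146% rose. Without adjustment 26 were lower and 1 higher at p under 0.05, and 7.90% of all genes tested were lower by this measure. With DESeq2's Wald test, 15 were lower and 1 higher, where 411 of all 17067 genes were lower and 153 higher. The count of 7 was 3 without wild-type replicate 1 or 3, 4 without heterozygote replicate 2, 3 or 4, and 5 without any other library. The log2 change, heterozygote minus wild-type, was negative for 50 of the 55 genes and for 50.6% of all genes tested. Its median was -0.39 over the 55 genes and -0.0030 over all genes tested. In 23 of the 55 genes every heterozygote library lay below every wild-type library, as in 4.89% of all genes tested. The reverse held for 1 gene, Dnaaf2, and for 2.98% of all genes. Since the groups are bulk pools, fewer cells carrying cilia and less RNA per such cell cannot be told apart.

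**Figure D1:**
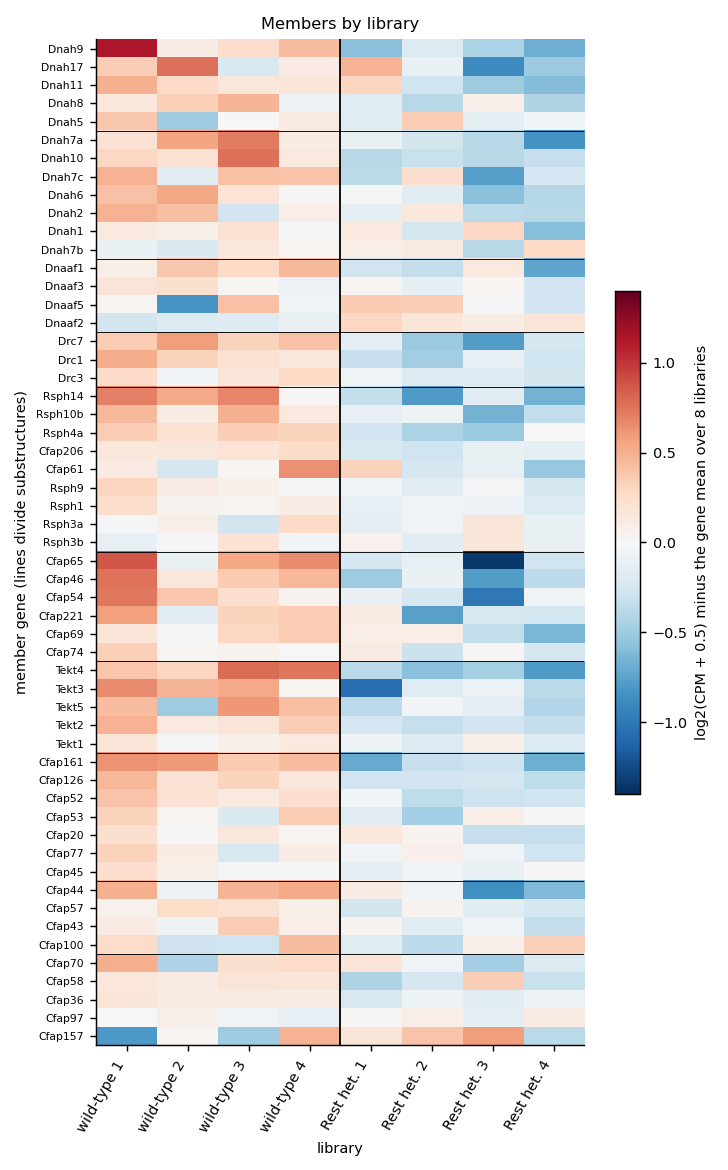
Level of each of the 55 genes in each library as log2(CPM + 0.5) minus the gene's mean over the 8 libraries, with lines between substructures. The median deviation over the 55 genes was 0.10 to 0.32 in the 4 wild-type libraries (left) and -0.28 to -0.12 in the 4 heterozygote libraries (right).

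The shift was seen in each library. The median over the 55 genes of the deviation from the gene's mean, on the log2(CPM + 0.5) scale, was 0.32, 0.10, 0.20 and 0.14 in wild-type replicates 1 to 4 and -0.12, -0.16, -0.15 and -0.28 in heterozygote replicates 1 to 4. The 2 sets of medians did not overlap. Wild-type replicate 1 was the highest and heterozygote replicate 4 the lowest. Weakly expressed genes of any kind also had negative median log2 changes, so genes were compared at like levels. Among genes with a mean below 2 CPM the median log2 change was -0.80 for 8 axoneme genes and -0.18 for all 3471 tested. From 2 to below 10 CPM it was -0.56 for 26 axoneme genes and -0.07 for all 3728, and at 10 CPM or more -0.25 for 21 axoneme genes and 0.03 for all 9868. At 10 CPM or more, 5 of the 21 axoneme genes fell, against 0.942% of all genes at that level.

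The 7 genes that fell belong to 5 substructures. Cfap161, a microtubule inner protein of the doublet, had the smallest adjusted p. It was at 13.3, 12.98, 11.04 and 11.5 CPM in wild-type replicates 1 to 4 and at 4.97, 6.64, 6.80 and 5.07 CPM in heterozygote replicates 1 to 4. Every heterozygote library was below the lowest wild-type library. The means were 12.2 ± 1.10 and 5.87 ± 0.985 CPM (SD, n = 4 each), 51.9% lower in heterozygotes, with a log2 change of -1.06 ± 0.15 (SE) and an edgeR adjusted p of 0.00611. Its gene lies at chr7:83774101-83794880 (GRCm38).

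Both of the other genes whose call held in all 8 fits that leave out a library are tektins, filament proteins built into the doublet wall. Tekt2 (GRCm38 chr4:126322121-126325688) was at 85.4, 66.9, 68.7 and 77.1 CPM in wild-type and 51.8, 48.7, 50.8 and 48.3 CPM in heterozygote replicates. The heterozygote values lay close together, and all were below the wild-type range. The log2 change was -0.58 ± 0.09 (SE, edgeR adjusted p = 0.00885). Of its exon bases 20.8% are shared with the antisense transcript Gm12945, whose reads cannot be told apart without strand. Tekt4 (chr17:25454615-25476602) was at 6.38, 5.96, 8.53 and 8.34 CPM in wild-type and 3.56, 3.01, 3.30 and 2.54 CPM in heterozygote replicates, again without overlap. Its log2 change of -1.23 ± 0.19 (SE, edgeR adjusted p = 0.0108) was the largest among the 7 genes.

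Cfap126, also called Flattop, is a microtubule inner protein known too for positioning the basal body in ciliated epithelia. Its gene (chr1:171113918-171126967) was at 25.1, 20.9, 22.5 and 20.2 CPM in wild-type and 14.8, 14.8, 15.2 and 13.95 CPM in heterozygote replicates, a log2 change of -0.59 ± 0.10 (SE, edgeR adjusted p = 0.0197). Drc1 (chr5:30281388-30366695), the scaffold subunit of the nexin-dynein regulatory complex, was at 55.5, 47.8, 44.6 and 43.2 CPM in wild-type and 30.7, 27.3, 35.6 and 31.6 CPM in heterozygote replicates, with a log2 change of -0.61 ± 0.11 (edgeR adjusted p = 0.022). Neither gene's groups overlapped. Cfap46 (chr7:139600951-139683817), a protein of the central apparatus, was at 19.98, 13.03, 15.1 and 16.2 CPM in wild-type and 8.06, 10.8, 6.55 and 8.92 CPM in heterozygote replicates (log2 change -0.91 ± 0.18, edgeR adjusted p = 0.036). Cfap206 (chr4:34688559-34730206), which docks a radial spoke on the doublet, showed the smallest change of the 7, with 42.4, 42.6, 43.8 and 45.7 CPM in wild-type and 32.9, 31.4, 35.6 and 34.7 CPM in heterozygote replicates (log2 change -0.37 ± 0.08, edgeR adjusted p = 0.0477).

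The calls of these 4 genes depended on single libraries. Without a single library the adjusted p of Cfap206 was 0.0785 to 0.14, past the threshold in none of the 8 fits. Cfap46 was called in 2 of them, without heterozygote replicate 2 or wild-type replicate 2 (adjusted p up to 0.127 in the others). Drc1 was called in 2, without heterozygote replicate 3 or wild-type replicate 4 (up to 0.0687 in the others). Cfap126 was called in 3, without heterozygote replicate 1, wild-type replicate 2 or wild-type replicate 4 (up to 0.0666 in the others). Cfap161, Tekt2 and Tekt4 kept their calls in all 8, with adjusted p up to 0.0279, 0.0372 and 0.0423 (edgeR, Benjamini-Hochberg). The log2 change of all 7 genes was negative in every such fit.

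**Figure D2:**
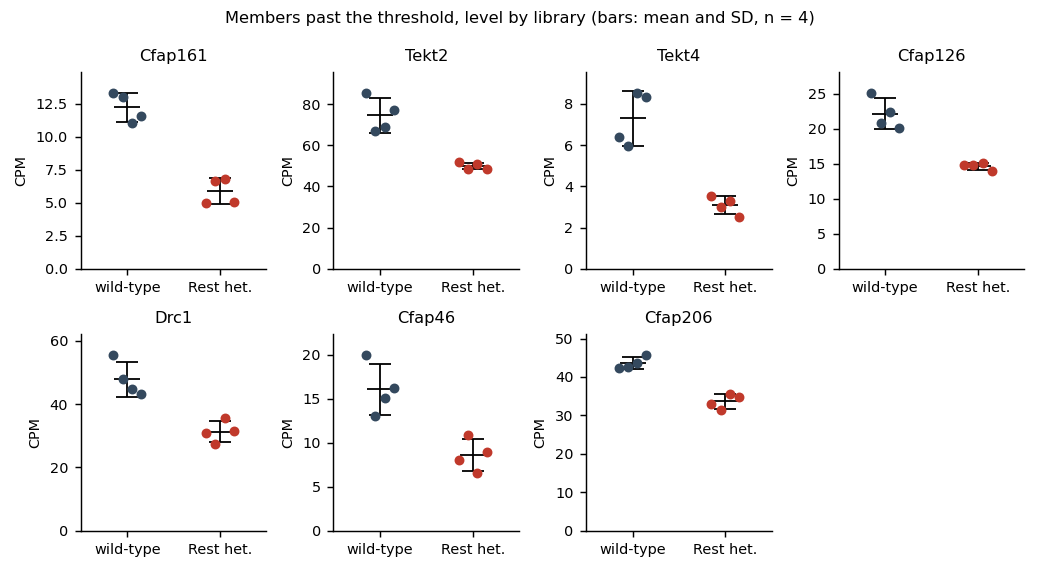
CPM of the 7 genes that fell, by library, with wild-type libraries in dark blue and Rest heterozygotes in red (points), and the mean and SD of 4 libraries as bars. In each panel the 4 heterozygote libraries lie below the 4 wild-type libraries.

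Because most of these genes shifted in the same direction, their promoters were searched for shared letters. RFX factors, with FOXJ1 the main activators of axoneme genes, bind the X-box, an inverted repeat of a half-site. RefSeq promoter windows (GRCm38.p6, 250 bases before to 50 after a start) were given for 48 of the 59 genes and for 27025 genes in all. The half-site GTTGCTA, on either strand, was in 20 of the 48 (41.7%) and in 4.28% of all genes, and GTTGCCA in 10 (20.8%) and 5.02%. The 3 longer forms, which can overlap the half-sites, were GTTNCC and GNAAC set 3 bases apart, the same set 2 bases apart, and GTTNCTA and GNAAC set 1 base apart. They were in 5, 4 and 4 of the 48 and in 0.936%, 0.777% and 0.396% of all genes. At least 1 of these 5 spellings was in 30 of the 48 genes (62.5%) and in 9.58% of all genes. The core of the REST site, CAGCACC and GGACAGC set 2 bases apart, was in none of the 48 and in 0.0259% of all genes. Letters this rare are hardly to be met in 48 genes, so their absence decides nothing. The parts alone, CAGCACC and GGACAGC, were each in 2 of the 48, and in 8.14% and 7.59% of all genes. The forkhead letters TGTTTAC were in 4 of the 48 and in 4.05% of all. A match is a run of letters and not a shown binding site.

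Of the 7 genes that fell, 4 held at least 1 of the 5 X-box spellings. Beside this, 62.5% of the 48 genes held at least 1. So did 43 of 68 axoneme genes with other names (63.2%), from the list described below. The stretches of the 4 genes are shown 5′ to 3′ on the strand of the gene, with the match in capitals. In Cfap161 (chr7:83794848-83794931, minus strand) 3 copies of the half-site lie between 67 and 34 bases before the start. In Drc1 (chr5:30281356-30281392, plus strand) the half-site shown ends 6 bases before it, and another, GTTGCTA on the opposite strand, lies 6 to 12 bases after it and is not shown. In Tekt2 (chr4:126325689-126325742, minus strand) an inverted repeat lies 29 to 17 bases before the most upstream of its RefSeq starts, and in Tekt4 (chr17:25471582-25471611, plus strand) the repeat begins at the start itself. These are RefSeq starts, which for Cfap161, Drc1 and Tekt4 lie inside the gene bounds given above.
Cfap161: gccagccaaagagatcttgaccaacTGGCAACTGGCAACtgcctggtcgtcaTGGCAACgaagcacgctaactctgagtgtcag
Drc1: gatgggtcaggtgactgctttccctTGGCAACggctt
Tekt2: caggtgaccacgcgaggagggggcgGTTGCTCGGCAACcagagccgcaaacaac
Tekt4: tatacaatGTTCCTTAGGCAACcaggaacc

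Matches were also present in genes that did not pass. They are shown for Dnah9 (chr11:66168596-66168658, minus strand) and for the 3 copies of Dnah7 (chr1:53706804-53706866, minus strand; chr1:46066804-46066852, plus strand; chr1:46425424-46425486, plus strand). The log2 change was -1.16 for Dnah9 and ran from -1.07 to 0.08 for the Dnah7 copies. The 3 copies carry the same 13 letters.
Dnah9: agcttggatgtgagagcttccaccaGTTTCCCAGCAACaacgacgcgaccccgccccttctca
Dnah7a: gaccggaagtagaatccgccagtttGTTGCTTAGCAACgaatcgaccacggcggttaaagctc
Dnah7b: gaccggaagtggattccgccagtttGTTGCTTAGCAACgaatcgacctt
Dnah7c: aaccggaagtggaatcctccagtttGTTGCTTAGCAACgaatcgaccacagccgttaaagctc

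Among the other tektins no gene passed the threshold, although the values of all were lower in the mean. Tekt1 had 51.9, 45.1, 48.3 and 50.8 CPM in wild-type and 43.9, 40.3, 49.1 and 40.3 CPM in heterozygote replicates, overlapping ranges with a log2 change of -0.18 ± 0.09 (edgeR adjusted p = 0.423). Tekt3 had 3.27, 2.82, 2.95 and 1.94 CPM in wild-type and 0.643, 1.62, 1.75 and 1.35 CPM in heterozygote replicates. These did not overlap, and the log2 change was -1.03 ± 0.32 (edgeR adjusted p = 0.204). Tekt5, at most 1.17 CPM in any library, had a log2 change of -0.96 ± 0.45 (edgeR adjusted p = 0.392). The median log2 change of the 5 tektins was -0.96, the lowest of the substructures that hold 3 or more tested genes. Whether substructures differ from each other was not tested.

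Of the 7 microtubule inner proteins tested, 2 fell and the other five did not pass, all with negative log2 changes (median -0.27). Cfap52 came closest, with 33.3, 28.96, 27.6 and 29.7 CPM in wild-type and 24.4, 19.6, 20.5 and 20.7 CPM in heterozygote replicates and no overlap (log2 change -0.49 ± 0.10, edgeR adjusted p = 0.0548). Cfap20, which closes the junction between the tubules of a doublet, was the axoneme gene with the highest level per length. It had 328, 284, 312 and 288 CPM in wild-type and 312, 291, 224 and 225 CPM in heterozygote replicates. Heterozygote replicates 1 and 2 were within the wild-type range and replicates 3 and 4 below it (log2 change -0.21 ± 0.12, edgeR adjusted p = 0.469). Cfap45, Cfap53 and Cfap77 had log2 changes of -0.13, -0.27 and -0.17.

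The 6 genes of the central apparatus with Cfap names had a median log2 change of -0.72. Of these 1, Cfap46, fell, and the other 5 had negative log2 changes. Cfap65 had 14.5, 7.21, 11.5 and 12.6 CPM in wild-type and 6.47, 7.12, 2.71 and 6.26 CPM in heterozygote replicates, with the highest heterozygote library just under the lowest wild-type library (log2 change -1.02 ± 0.29, edgeR adjusted p = 0.166). Cfap69, the best expressed per length with Cfap46, had 24.2, 21.2, 26.4 and 27.5 CPM in wild-type and 22.9, 22.9, 16.7 and 13.5 CPM in heterozygote replicates, which overlapped (log2 change -0.39 ± 0.17, edgeR adjusted p = 0.365). Cfap54, Cfap221 and Cfap74 had log2 changes of -0.75, -0.69 and -0.21.

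In all 3 genes of the nexin-dynein regulatory complex with Drc names every heterozygote library lay below every wild-type library, as in 4.89% of all genes tested. Further subunits have other names and are in the list of other axoneme genes below. Of them Gas8, Iqcg and Iqcd overlapped between the genotypes, and Ccdc65, Tcte1 and Iqca did not. Besides Drc1, Drc7 had 6.59, 7.81, 6.43 and 6.84 CPM in wild-type and 4.54, 3.35, 2.71 and 4.17 CPM in heterozygote replicates, just short of the threshold (log2 change -0.90 ± 0.19, edgeR adjusted p = 0.053). Drc3 had 28.7, 23.05, 26.8 and 28.9 CPM in wild-type and 22.8, 20.8, 20.9 and 19.8 CPM in heterozygote replicates (log2 change -0.35 ± 0.10, edgeR adjusted p = 0.183).

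Of 9 radial spoke genes tested, Cfap206 fell and 8 did not pass, with a median log2 change of -0.32. The spoke-head gene Rsph4a had 17.3, 15.7, 17.2 and 16.9 CPM in wild-type and 11.1, 9.80, 9.27 and 13.5 CPM in heterozygote replicates, without overlap (log2 change -0.62 ± 0.13, edgeR adjusted p = 0.0544). The spoke-head gene Rsph9 had 30.2, 26.5, 25.8 and 24.1 CPM in wild-type and 23.7, 21.98, 24.2 and 20.5 CPM in heterozygote replicates, which overlapped by 1 heterozygote library (log2 change -0.24 ± 0.10, edgeR adjusted p = 0.364). The near-identical stalk genes Rsph3a and Rsph3b had the changes closest to 0 of the group, -0.06 ± 0.15 and -0.01 ± 0.14 (SE). Reads that map to both copies were counted for neither, so both levels are uncertain. Rsph1 and Rsph10b, whose groups did not overlap, and Cfap61 had log2 changes of -0.23 ± 0.11, -0.66 ± 0.21 and -0.32 ± 0.28 (SE, edgeR adjusted p = 0.413, 0.205 and 0.645).

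Rsph14 had the largest log2 change of all 55 genes, -1.79 ± 0.44 (SE), and did not pass (edgeR adjusted p = 0.0994). It had only 31, 24, 32 and 13 reads in wild-type and 9, 3, 12 and 5 reads in heterozygote replicates. It is the 1 gene tested that reached 10 reads in all wild-type but not all heterozygote libraries, so its entry into the test already leaned on the group where it was higher.

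Dynein heavy chains were mostly low and none passed. Of the 5 outer arm heavy chains all had negative log2 changes, with a median of -0.58. Dnah5, the best expressed of them per length, overlapped throughout, with 25.2, 13.5, 19.2 and 20.996 CPM in wild-type and 17.1, 24.7, 17.5 and 18.5 CPM in heterozygote replicates (log2 change -0.02 ± 0.19, edgeR adjusted p = 0.971). Dnah9, its partner in many motile cilia, had 7.48, 3.42, 3.80 and 4.41 CPM in wild-type and 1.93, 2.68, 2.17 and 1.76 CPM in heterozygote replicates. The groups did not overlap, wild-type replicate 1 was the highest by far, and the log2 change was -1.16 ± 0.28 (edgeR adjusted p = 0.0883). Dnah11 had 5.27, 4.39, 4.04 and 4.07 CPM in wild-type and 4.50, 2.87, 2.38 and 2.17 CPM in heterozygote replicates, with heterozygote replicate 1 inside the wild-type range (log2 change -0.58 ± 0.25, edgeR adjusted p = 0.355). Dnah8 and Dnah17 had log2 changes of -0.55 ± 0.25 and -0.88 ± 0.66 (SE).

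Of the 7 inner arm heavy chains 6 had negative log2 changes (median -0.65). Dnah10, a chain of the double-headed inner arm, had 4.85, 4.57, 6.96 and 4.32 CPM in wild-type and 2.83, 3.01, 2.84 and 2.99 CPM in heterozygote replicates (log2 change -0.83 ± 0.20, edgeR adjusted p = 0.0887). The heterozygote values lay within a narrow band below all wild-type values. Dnah6 had 5.87, 6.47, 4.93 and 4.32 CPM in wild-type and 4.20, 3.82, 2.67 and 3.11 CPM in heterozygote replicates (log2 change -0.65 ± 0.21, edgeR adjusted p = 0.224). Dnah1 had 9.52, 9.15, 10.03 and 8.53 CPM in wild-type and 9.52, 7.17, 10.6 and 5.52 CPM in heterozygote replicates, which overlapped (log2 change -0.18 ± 0.19, edgeR adjusted p = 0.722). Dnah2 had a log2 change of -0.42 ± 0.23 (edgeR adjusted p = 0.457). The similar genes Dnah7a, Dnah7b and Dnah7c, all on chromosome 1, had log2 changes of -1.07 ± 0.32, 0.08 ± 0.23 and -0.73 ± 0.33 (SE, edgeR adjusted p = 0.185, 0.913 and 0.374). They share long stretches of sequence, so these levels are uncertain too.

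The dynein arm assembly factors, cytoplasmic proteins that fold and join the arms before they enter the cilium, had a median log2 change of 0.00081 over 4 genes, and 2 were positive. Dnaaf2 had 23.6, 24.7, 24.9 and 26.3 CPM in wild-type and 34.6, 31.9, 30.4 and 32.2 CPM in heterozygote replicates, so every heterozygote library was above every wild-type library. Its log2 change of 0.38 ± 0.09 did not pass (edgeR adjusted p = 0.0703), and 32.6% of its exon bases are shared with a transcript of the opposite strand, 9330151L19Rik. On its own strand 22.33% are shared with Gm49383 and 20.65% with Gm49384, so its level is uncertain. Dnaaf3 had 12.5, 12.8, 11.1 and 10.3 CPM in wild-type and 11.2, 9.94, 11.2 and 9.04 CPM in heterozygote replicates (log2 change -0.18 ± 0.13, edgeR adjusted p = 0.584). Dnaaf5 and Dnaaf1 had log2 changes of 0.18 ± 0.28 and -0.67 ± 0.25 (SE, edgeR adjusted p = 0.827 and 0.296).

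**Figure D3:**
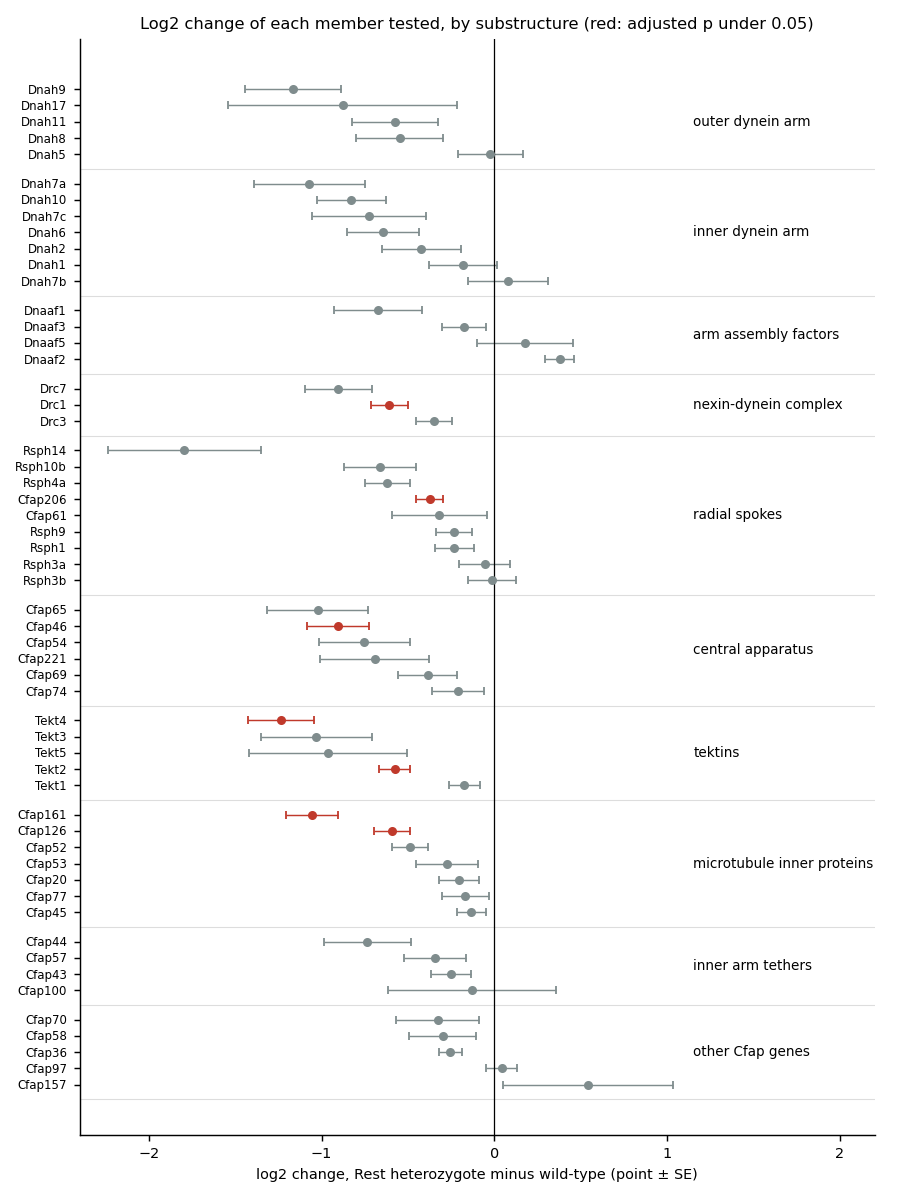
Log2 change, Rest heterozygote minus wild-type, with its SE, for each of the 55 genes tested, ordered by substructure; red points have an adjusted p under 0.05. Of the points 50 lie left of 0, and the 4 assembly factors with Dnaaf names lie on both sides of it.

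Of the tethers and modifiers of the inner arms none passed. Cfap43 had 35.5, 31.2, 42.1 and 35.01 CPM in wild-type and 33.95, 29.2, 31.8 and 25.9 CPM in heterozygote replicates (log2 change -0.25 ± 0.12, edgeR adjusted p = 0.386). Its partner Cfap44 had 9.61, 6.24, 9.42 and 9.84 CPM and 7.16, 6.40, 3.42 and 4.13 CPM, with wild-type replicate 2 inside the heterozygote range (log2 change -0.74 ± 0.25, edgeR adjusted p = 0.249). Cfap57 had 3.70, 4.34, 4.17 and 3.78 CPM and 2.87, 3.68, 3.13 and 2.90 CPM, which came within 0.1 CPM of each other but did not overlap (log2 change -0.35 ± 0.18, edgeR adjusted p = 0.432). Some Cfap genes were not assigned to a substructure here. Of these, Cfap36 encodes a partner of the small GTPase ARL3. It had 73.3, 70.3, 70.8 and 69.6 CPM in wild-type and 55.5, 61.7, 58.8 and 61.9 CPM in heterozygote replicates. The groups did not overlap (log2 change -0.26 ± 0.07, edgeR adjusted p = 0.121). Cfap97 had 30.9, 32.7, 29.7 and 28.5 CPM and 31.1, 32.8, 27.9 and 33.4 CPM, mixed between the groups (log2 change 0.04 ± 0.09). Cfap58, Cfap70 and the tether gene Cfap100 had log2 changes of -0.30 ± 0.19, -0.33 ± 0.24 and -0.13 ± 0.49 (SE). Cfap157 had the largest positive value, 0.54 ± 0.49 (SE, edgeR adjusted p = 0.667), from 7 to 38 reads per library.

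Per kilobase of exon, levels in wild-type libraries spanned 68.1 ± 4.61 CPM per kb for Cfap20 to 0.0451 ± 0.0220 for Dnah17 (SD, n = 4). After Cfap20 came Tekt2 with 39.2 ± 4.47, Tekt1 with 30.2 ± 1.87, Cfap36 with 25.9 ± 0.589, Drc1 with 17.8 ± 2.05, Cfap206 with 17.6 ± 0.613 and Rsph9 with 16.6 ± 1.62 CPM per kb. Drc1, Cfap206 and Rsph9 did not differ from one another beyond their spread. In heterozygote libraries Tekt2 and Tekt1 did not differ beyond their spread, at 26.3 ± 0.876 and 26.8 ± 2.58 CPM per kb. The dynein heavy chains lay far lower, from 1.26 ± 0.311 CPM per kb for Dnah5 and 0.714 ± 0.0483 for Dnah1 down to Dnah17. Of the assembly factor genes, Dnaaf2 was at 7.34 ± 0.325 and Dnaaf3 at 5.25 ± 0.525 CPM per kb in wild-type libraries, while Dnaaf5 and Dnaaf1, at 1.39 ± 0.492 and 1.21 ± 0.150, were close to Dnah5.

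**Figure D4:**
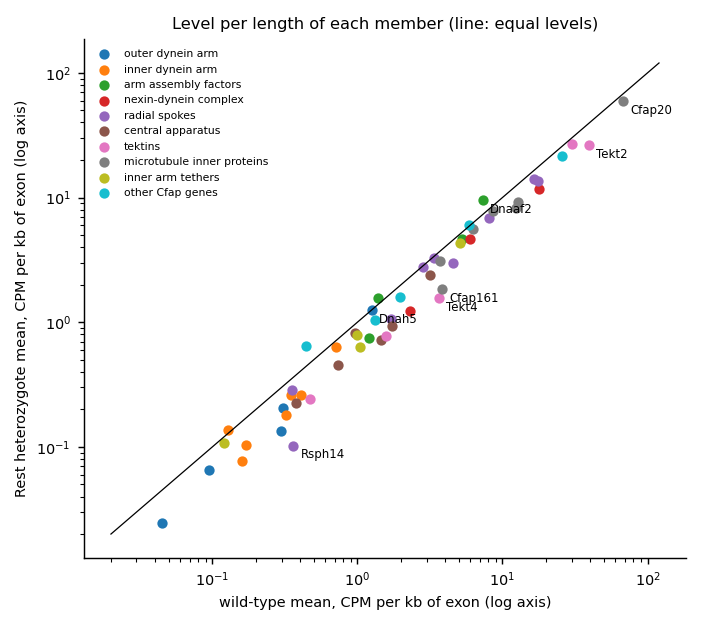
Mean level of each of the 55 genes in wild-type (x) against Rest heterozygote libraries (y), in CPM per kilobase of exon on log axes, coloured by substructure; the line marks equal levels. Most points lie under the line, Dnaaf2 lies above it, and Cfap20 is the highest.

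Axoneme genes with other names were also mostly lower in the mean. From a list of 99 further names, 2 were not matched and 9 were older names of the genes above, which left 88 genes, 80 of them tested. Of these, 8 fell, none rose and 72 did not pass, where 1.0% of all genes tested fell. A negative log2 change was found in 75 (median -0.48). The count of 8 was 3 without heterozygote replicate 3 or wild-type replicate 1, 4 without wild-type replicate 4, 5 without heterozygote replicate 2 or wild-type replicate 2, and 6 without any other library. In 35 of the 80 every heterozygote library lay below every wild-type library, as in 4.89% of all genes tested. Ak7, an axonemal adenylate kinase, had 4.29, 3.51, 4.21 and 3.98 CPM in wild-type and 0.900, 1.10, 1.67 and 1.06 CPM in heterozygote replicates (log2 change -1.75 ± 0.24, edgeR adjusted p = 0.00463). Armc4, which docks outer dynein arms, had 42.4, 36.3, 30.9 and 35.6 CPM and 21.1, 23.2, 24.003 and 22.5 CPM (log2 change -0.68 ± 0.11, edgeR adjusted p = 0.0116). Fam183b, Iqub and Ttc29 fell by log2 changes of -0.92, -1.08 and -0.9999. In 4 of these 5 genes the fall was by 47.2% or more of the wild-type mean. The 2 best expressed per length, the dynein light chain gene Dnal4 and Nme5, had log2 changes of -0.04 ± 0.09 and -0.11 ± 0.09 (edgeR adjusted p = 0.883 and 0.642). Spag6l and Spef2 of the central apparatus also fell. Hydin, Spag17, Spag16 and Spef1, of the same structure, did not pass. Their log2 changes were 0.05, 0.34, -0.0056 and -0.18 (edgeR adjusted p = 0.952, 0.773, 0.995 and 0.687).

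Of 20 ciliogenesis transcription factors, the regulators of these genes, 10 were tested and none passed in edgeR's test. Without adjustment 1 was lower and 1 higher at p under 0.05, 7 of the 10 had positive log2 changes, and the median log2 change was 0.06. Foxj1 had 10.8, 8.91, 9.42 and 10.7 CPM in wild-type and 15.7, 10.7, 10.5 and 8.06 CPM in heterozygote replicates (log2 change 0.17 ± 0.19, edgeR adjusted p = 0.728). Rfx3 had 72.3, 62.9, 52.6 and 54.7 CPM and 55.1, 71.4, 46.9 and 58.3 CPM (log2 change -0.07 ± 0.14, adjusted p = 0.874), and Rfx2 had a log2 change of 0.04 ± 0.16 (adjusted p = 0.938). All 3 genes' groups overlapped. Those of Rfx7, the gene lower without adjustment, and of Rfx1, the higher one, did not. Their log2 changes were -0.72 ± 0.18 and 0.35 ± 0.14 (SE, edgeR adjusted p = 0.104 and 0.324).

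Markers of the cells that carry or neighbour these cilia are given beside these values. Kncn, whose protein kinocilin lies in the kinocilium, fell, with 65.8, 54.9, 60.5 and 60.95 CPM in wild-type and 23.5, 20.4, 19.3 and 18.4 CPM in heterozygote replicates (log2 change -1.57 ± 0.10, edgeR adjusted p = 1.89e-05). Dcdc2a, the other gene of the kinocilium list, was at 1.94 ± 0.924 CPM in wild-type and 1.94 ± 0.775 CPM in heterozygote libraries (SD, n = 4 each), and its log2 change of -0.0040 did not pass (edgeR adjusted p = 0.998). Of 16 hair cell identity and early genes tested none passed (7 at an unadjusted p under 0.05, 3 lower and 4 higher), 8 had negative and 8 positive log2 changes, the median was -0.0060, and the summed level was 1075.4 to 1273 CPM in heterozygote and 1067 to 1267 CPM in wild-type libraries. At an unadjusted edgeR p under 0.05, Atoh1, Hes6, Calb2 and Selenom were higher and Pcp4, Myo7a and Anxa4 lower. The best expressed of the 16, Myo6 and Anxa4, had log2 changes of -0.13 ± 0.12 and -0.18 ± 0.08 (SE). Of 27 hair bundle genes 7 fell (Fscn2, Xirp2, Tmc2, Lhfpl5, Ptprq, Loxhd1 and Grxcr2) and none rose, where 1.0% of all genes tested fell. The median of the 27 was -0.34, and their summed level was 518 to 564 CPM in heterozygote and 601 to 749.9 CPM in wild-type libraries. The best expressed bundle genes, Ush1c and Triobp, did not pass (log2 changes -0.21 ± 0.09 and -0.11 ± 0.10). The summed hair bundle level did not overlap between genotypes and the summed hair cell identity level did. To the latter sum Myo6 alone gave means of 349 CPM in wild-type and 319 CPM in heterozygote libraries. The part of hair bundle genes in the axoneme result was not tested.

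Among multiciliated cell markers 2 of 9 were tested, Deup1 and Ccdc78, and neither passed (log2 changes 0.79 ± 0.46 and -0.35 ± 0.28). The summed level of the 9 was 6.01 to 12.3 CPM in heterozygote and 9.55 to 12.7 CPM in wild-type libraries, and the other seven, Mcidas, Gmnc, Ccno, Cdc20b, Sntn, Tmem212 and Foxn4, stayed under 10 reads in 5 or more libraries. Of 21 supporting and prosensory cell genes none passed (median 0.07, with 0.07 for Sox9 and 0.05 for Jag1). Of 15 ganglion neuron genes 2 fell, Nefl and Nefm (median -0.13), and the summed level was 436.9 to 511 CPM in heterozygote and 616 to 905 CPM in wild-type libraries, which did not overlap. Without Nefl and Nefm, left out after their values were seen, the sums were 277 to 343 and 266 to 454 CPM, which overlapped. Isl1, the best expressed after Nefm, had a log2 change of 0.01 ± 0.09 (SE). Wild-type replicate 3 stood apart in this list, with Prph at 48.7, Tubb3 at 61.95 and Stmn2 at 42.7 CPM, against 3.25 to 9.23, 13.8 to 20.4 and 5.72 to 12.8 CPM in the other libraries. The part of these genes in the axoneme result was not tested. Of 15 genes of the utricle and otic epithelium 1 rose, Krt8, while Oc90 and Epcam had log2 changes of -0.24 ± 0.19 and 0.22 ± 0.07 (SE). None passed in the lists for Schwann cells, periotic mesenchyme, melanocytes, endothelial cells, macrophages and red blood cells, with medians of -0.12, 0.03, -0.14, 0.02, 0.09 and -1.39. The last value goes with the blood genes high in wild-type replicate 4. The best expressed genes of these lists had log2 changes of 0.24 (Erbb3) and -0.12 (Pmp22), -0.07 (Otor) and 0.01 (Coch), 0.25 (Ednrb) and -0.21 (Kit), -0.01 (Esam) and 0.08 (Emcn), 0.17 (C1qb) and -0.05 (Csf1r), and -1.68 (Hbb-bs) and -1.80 (Hbb-bt).

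**Figure D5:**
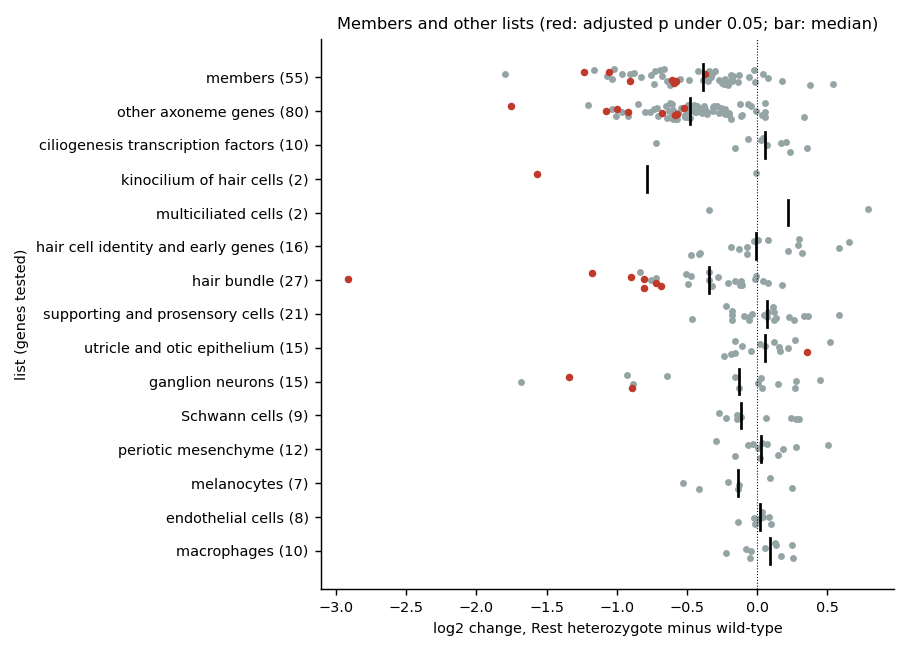
Log2 change, Rest heterozygote minus wild-type, of each gene tested in the axoneme families, in the list of other axoneme genes and in the regulator and marker lists other than red blood cells; red points have an adjusted p under 0.05 and bars are medians. The medians of the axoneme families and of the other axoneme genes are -0.39 and -0.48, and that of hair cell identity genes is close to 0.

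The read threshold left out 4 genes: Cfap73, Cfap99, Dnah14 and Dnah2os, a transcript antisense to Dnah2. Of the 55 genes tested, 50 had at least 10 reads in all 8 libraries. Just inside the threshold, Cfap100 had 15, 6, 7 and 16 reads in wild-type and 8, 5, 12 and 17 reads in heterozygote replicates. Dnah17 had 18, 26, 9 and 12 and 21, 9, 1 and 5 reads, and Tekt5 had 23, 6, 29 and 20 and 8, 12, 12 and 8 reads. Just outside it, Cfap73 had 8, 8, 17 and 11 reads in wild-type and 1, 4, 1 and 10 reads in heterozygote replicates.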

How the data were processed

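Gene counts of 8 libraries were analysed. The submitters' processing notes name STAR 2.5.2a and GRCm38.p4, and the authors' annotation release is not given in the sources used here. The authors deposited raw counts of read pairs per gene, and the column that ignores strand was used, because the columns for either strand summed to 0.996 to 1.00 of each other. Lines that name no gene made up 25.2% to 33.9% of read pairs and were left out. The authors also deposited a normalized signal, counts divided by a size factor (DESeq2, no version given), for 21369 genes and 7 libraries, without wild-type replicate 4. It gave the gene names. All of its values (100%) became whole reads (tolerance 0.001) equal to the counts, and a test on these, added after seeing the data, called 107 genes lower and 20 higher.

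Genes with at least 10 reads in 4 or more libraries (17067) were tested with edgeR 4.0.16 in R 4.3.3: TMM factors, quasi-likelihood test, Benjamini-Hochberg adjustment over all, threshold 0.05. The SE of a log2 change was taken from it and the F statistic (absolute change over root F). The test was checked on simulated counts. Exon lengths and coordinates are from GENCODE M21. Samples were grouped by the genotype label. Alternatives were other scalings, filters, DESeq2 1.42.0, left-out libraries and a replicate block. The genes, lists and substructures were chosen with earlier results of these data known. Named were genes past the threshold, the 2 best expressed per length and, where none passed, the smallest p of each substructure, the 3 largest changes in each direction not past it, genes at the read threshold, up to 6 called and 2 best expressed of the other axoneme genes, Foxj1, Rfx2, Rfx3, Kncn and up to 2 markers per list. Other genes are named as remaining members, as further genes of a substructure or because a count was small, after their values were seen. A gene chosen by the rule is not reported here. In all 13 motif spellings were searched.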

Additional observations from a re-analysis of the deposited data

Results flagged for a closer look

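In some groups of 4 libraries 1 library stood far from the other three; by this measure (gap to the nearest library over the group's range, above Dixon's critical value) chance marks about 1 group in 20, and 9 of the 140 groups of the genes named were marked. Cfap44 was at 6.24 CPM in wild-type replicate 2 and at 9.42 to 9.84 CPM elsewhere in that group. Fam183b was at 6.56 CPM in heterozygote replicate 1 and 7.60 to 7.72 CPM in the others. The multiciliated cell marker Deup1 was at 0.213 CPM in wild-type replicate 1 and 0.809 to 0.831 CPM in the others. Wild-type replicate 1 was high for Jag1 (1100.0 against 804 to 849 CPM) and for Ednrb (824 against 440.4 to 483 CPM). Wild-type replicate 2 was high for Otor (3171 against 2222 to 2298 CPM). Wild-type replicate 4 was low for Kit (62.6 against 70.3 to 71.4 CPM) and high for the globin genes Hbb-bs (2141 against 152.9 to 185.4 CPM) and Hbb-bt (1889 against 120.3 to 159.7 CPM). Without that library 5 axoneme genes passed as lower.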

How the results depend on the processing

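The median log2 change over the axoneme genes was negative in every alternative, while the number of calls varied. Axoneme genes past the threshold numbered 15 lower and 1 higher (Dnaaf2) with DESeq2's Wald test and 2 lower with the replicate block, and 3 to 5 lower when 1 library was left out. Other axoneme genes past it numbered 27 with DESeq2, 2 with the block, 4 in the 7 libraries of the authors' table, 3 on its recovered reads (chosen after seeing the data) and 3 to 6 with 1 library left out. Over all genes, 411 were lower and 153 higher with DESeq2, 80 and 16 with the block, and down to 100 lower and 12 higher with 1 library left out, against 171 and 25. Cfap206 was also lost with DESeq2's size factors (adjusted p = 0.0555), with library totals alone (0.0536) and without a filter (0.11). Replicate numbers did not pair the libraries: same-numbered libraries had correlations of deviations of -0.119 to 0.052, and none of the 8 correlated best with its own number. With the replicate block Cfap161 and Tekt2 kept their calls (adjusted p = 0.048 and 0.0405), and Tekt4 (0.0662), Cfap126 (0.0933), Drc1 (0.0953), Cfap46 (0.121) and Cfap206 (0.159) did not. The median log2 change of the axoneme genes ran from -0.47 to -0.37 with 1 library left out. Those of tektins ran from -1.11 to -0.77, radial spokes -0.39 to -0.20, microtubule inner proteins -0.38 to -0.20 and other Cfap genes -0.27 to -0.18. That of the assembly factors with Dnaaf names ran from -0.08 to 0.09, the 1 of these medians that changed sign. Other Cfap genes had -0.086 without a filter and -0.11 on the recovered reads, where radial spokes had -0.27. The cause of these differences was not tested, except that fits with fewer libraries or a block have fewer degrees of freedom. Among single genes named, 1101 of the alternative values kept their side of the threshold, 53 lost a call and 9 gained one. Of the 8 axoneme genes below 2 CPM none was called, and 0.663% of all genes at that level were called lower.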
